A study of Mus musculus with 16 samples.

Results

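The genes of the voltage-gated sodium channels, the voltage-gated calcium channels and the hyperpolarization-activated HCN channels were followed in hippocampal neurons grown with astrocyte medium that held no apoE or human apoE2, apoE3 or apoE4. Members were taken by symbol: every *Scn* gene with a number and the letter a or b, every *Cacna1* gene with a letter from a to s, and the numbered *Cacnb*, *Cacna2d* and *Hcn* genes. This gave 35 of the 48397 symbols in the count tables, of which 9 encode sodium channel alpha subunits, 4 sodium channel beta subunits, 10 calcium channel alpha1 subunits, 4 calcium channel beta subunits, 4 alpha2delta subunits and 4 HCN channels. No measured value entered the choice. The symbol pattern leaves out *Scn2a1*, an older symbol of a brain sodium channel alpha subunit that the tables carry under that name, and its level is given with the order of the alpha subunits.

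The study sequenced 16 libraries of primary hippocampal neurons from P0-P2 pups of CD1 mice, wild type at their own Apoe gene, with 4 libraries in each of 4 groups. Every culture received cytosine-β-D-arabinoside at 3 days in vitro (DIV) against dividing cells, had astrocyte medium, concentrated 10-fold, added at both 10 and 13 DIV, and was harvested at 17 DIV. The control group received medium of immortalized Apoe-/- astrocytes, and the apoE2, apoE3 and apoE4 groups received medium of immortalized astrocytes from targeted-replacement mice homozygous for human *APOE* ε2, ε3 or ε4. Each isoform therefore comes from its own immortalized line, and the line and the isoform cannot be told apart. According to the study's methods, medium of Apoe-/- astrocytes could be added to an apoE medium to even out apoE levels between batches. Each library held 14087723 to 34248172 counts on genes, with a median of 22221832. ApoE2 replicate 4 and apoE4 replicate 2 stood apart in the share of reads assigned to no gene, 38.4% and 38.6% beside a median of 59.6%, and in the share of gene counts on *Lars2*, 0.690% and 0.359% beside a median of 5.98%.

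Sodium channels open during depolarization and carry the upstroke of the action potential, with a pore-forming alpha subunit and beta subunits that alter gating and membrane delivery. Voltage-gated calcium channels admit calcium when the membrane depolarizes: the alpha1 subunit forms the pore and sets the current type, and the beta and alpha2delta subunits govern traffic to the membrane and gating. L-type channels couple activity to transcription, P/Q-type and N-type channels trigger transmitter release, R-type channels act in dendrites and spines of hippocampal neurons, and T-type channels open near rest and favour bursts. HCN channels open on hyperpolarization and carry a depolarizing current that shapes resting potential, dendritic integration and pacemaking.

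The labelled cell type was checked against 8 neuron markers (*Rbfox3*, *Map2*, *Tubb3*, *Snap25*, *Syt1*, *Slc17a7*, *Gad1* and *Gad2*), all of them tested in every comparison, whose summed level was 2879 to 7280 CPM (counts scaled to the effective size of the library) over the 16 libraries. Markers of other cells were present too: the 6 astrocyte markers summed to 1139 to 5442 CPM, the 8 markers of the oligodendrocyte lineage to 107 to 846 CPM, the 6 microglia markers to 5.83 to 29.1 CPM, the 8 fibroblast or mural markers to 22.5 to 314 CPM, the 4 endothelial markers to 0.966 to 3.66 CPM and the 3 markers of dividing cells to 5.80 to 39.6 CPM. The 3 Schwann cell markers summed to 0.907 to 5.49 CPM, with *Foxd3* at 0 in all libraries. Number 4 had the lowest neuron sum in each medium, though apoE2 replicate 4 (astrocyte sum 2530 CPM) was not the highest of its group in astrocyte markers. ApoE3 replicate 4 had both the lowest neuron sum (2879 CPM) and the highest astrocyte sum (5442 CPM), and apoE4 replicate 4 had the next lowest and next highest (3332 and 4546 CPM). In RNA from a whole culture, fewer cells of a type and less RNA per cell cannot be told apart.

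**Figure D1:**
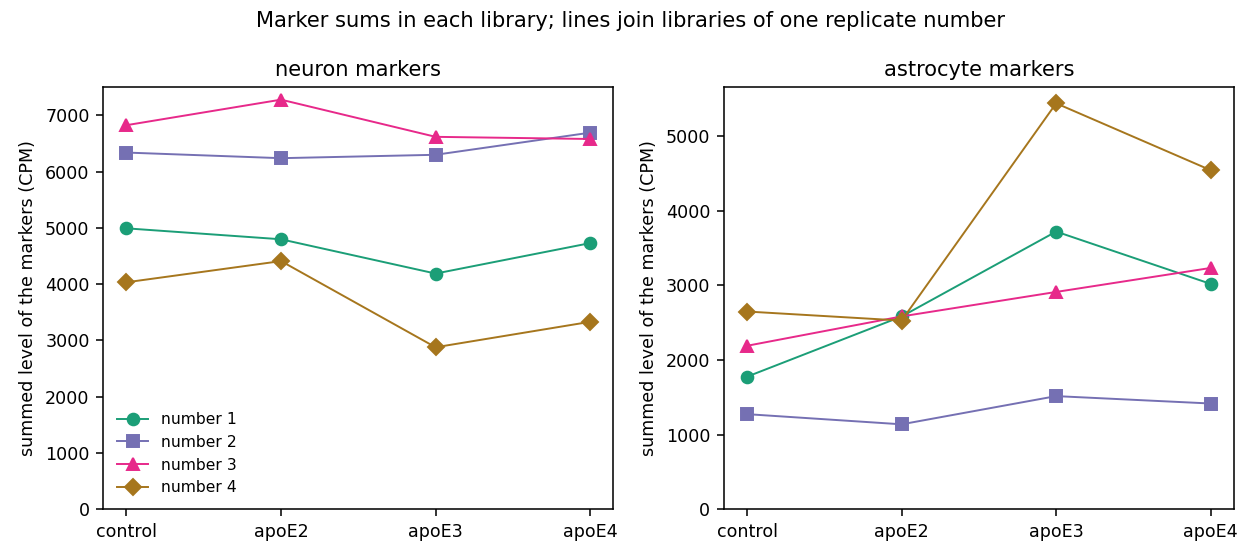
Summed level of 8 neuron markers and of 6 astrocyte markers in CPM in each of the 16 libraries, by medium, with lines joining libraries of one replicate number. The neuron sum is lowest (2879 CPM) and the astrocyte sum highest (5442 CPM) in apoE3 replicate 4.

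The channel genes covered a wide range of levels in the control medium. Levels of different genes are compared here as CPM per kilobase (kb) of exon, as the mean and SD of 4 libraries. Among the sodium channel alpha subunits, 3 stood well above the others: *Scn8a*, the subunit of mature axon initial segments, at 10.4 ± 2.63 CPM per kb, *Scn3a*, best known from embryonic brain, at 8.43 ± 1.10, and *Scn1a*, prominent in fast-spiking interneurons, at 7.91 ± 0.737. The ranges of neighbours in that order overlapped, while *Scn7a*, a sodium-level sensor of glia, stood at 0.304 ± 0.0970 CPM per kb with no overlap with *Scn1a*. At lower levels stood *Scn9a* and *Scn11a*, known from sensory neurons, at 0.119 and 0.0768 CPM per kb. *Scn2a1*, outside the symbol pattern, was above all of these with 60.9 CPM per kb in the control group. *Scn10a* and *Scn4a*, subunits of sensory neurons and of skeletal muscle, had 21 and 18 counts in all 16 libraries together and were not tested, so that 33 members were tested.

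*Scn8a* measured 172, 194, 185 and 103 CPM in the control libraries, 156, 209.9, 235 and 125 with apoE2, 145, 222, 203 and 72.8 with apoE3 and 192, 232, 211 and 80.4 with apoE4, in the order of replicate numbers 1 to 4. In every group number 4 was the lowest library, and the ranges of all groups overlapped.

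Among the sodium channel beta subunits, *Scn2b* stood at 49.5 ± 12.8 CPM per kb, *Scn3b* at 22.5 ± 4.86 and *Scn4b* at 0.256 ± 0.0910, with no overlap between them.

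Among the calcium channel alpha1 subunits, *Cacna1b* of N-type channels (16.2 ± 2.52 CPM per kb) and *Cacna1h*, a T-type subunit (14.2 ± 2.67), led and overlapped. *Cacna1a* of P/Q-type channels (8.29 ± 2.14), *Cacna1c*, an L-type subunit (7.43 ± 1.60), and *Cacna1e*, the R-type subunit (7.10 ± 1.92), followed with overlapping ranges, and *Cacna1i* (2.87), *Cacna1d* (2.60) and *Cacna1g* (1.95) formed a lower set. *Cacna1s* and *Cacna1f*, the L-type subunits of skeletal muscle and retina, were at 0.0622 and 0.0551 CPM per kb. With the longest transcript as the length, *Cacna1h* took the place of *Cacna1b* at the top of the alpha1 subunits. *Cacna1b* measured 154, 187, 174 and 129.6 CPM in the control libraries, 128, 185, 204 and 135 with apoE2, 126, 178, 189 and 82.3 with apoE3 and 153, 186, 180.0 and 85.3 with apoE4, and these ranges overlapped.

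The calcium channel beta subunits were all expressed, in the order *Cacnb3* (27.9 ± 3.52 CPM per kb), *Cacnb1* (19.0 ± 5.88), *Cacnb4* (11.3 ± 2.68) and *Cacnb2* (4.08 ± 0.759), where only *Cacnb1* and *Cacnb4* overlapped. *Cacnb3* measured 108, 132, 108 and 99.2 CPM in the control libraries, 76.6, 123, 105 and 95.8 with apoE2, 89.4, 129, 106 and 79.9 with apoE3 and 112, 124, 114 and 79.2 with apoE4. Of the alpha2delta subunits, *Cacna2d1*, the main target of gabapentin, was highest (19.6 ± 5.59 CPM per kb), followed by *Cacna2d3* (10.3 ± 1.35), *Cacna2d2* (0.636 ± 0.269) and *Cacna2d4* (0.182 ± 0.0444), with no overlap between neighbours.

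Among the HCN genes, *Hcn2* (20.5 ± 1.80 CPM per kb) was above *Hcn3* (4.44 ± 0.671) without overlap, and *Hcn4*, the main sinoatrial pacemaker isoform, was lowest (1.35 ± 0.427). *Hcn2* measured 64.0, 68.8, 71.1 and 58.1 CPM in the control libraries, 60.7, 79.6, 72.0 and 54.5 with apoE2, 56.4, 67.0, 65.0 and 36.9 with apoE3 and 68.3, 74.2, 76.3 and 43.2 with apoE4. Again number 4 was the lowest library of each group. The counting did not state whether strand was used, and 3 genes shared over 5% of their exon length with a gene on the other strand: *Cacna1s* 19.98% with *Gm37759*, *Hcn3* 17.1% with *Pklr* and *Cacnb4* 15.99% with *A430018G15Rik*, so that part of their counts could belong to those genes.

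**Figure D2:**
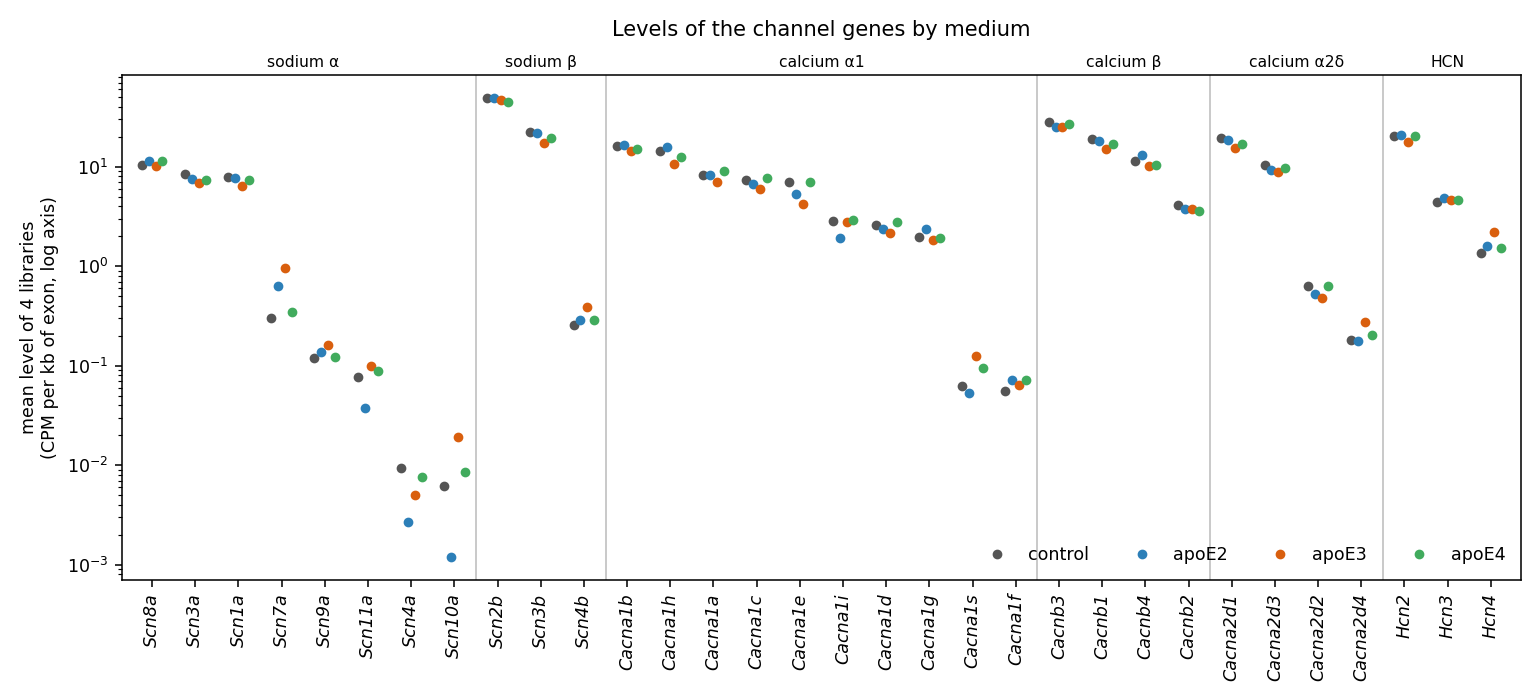
Mean level of 32 channel genes in CPM per kb of exon (log axis) in the 4 media, each point the mean of 4 libraries, with genes grouped by subunit and ordered by the control level. *Scn2b* stands at 49.5 CPM per kb in the control medium, and *Scn8a*, *Scn3a* and *Scn1a* lie far above the other sodium alpha subunits in every medium.

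More of the spread of these genes lay between replicate numbers than between media. Of the variance of log2 CPM over the 16 libraries, the median channel gene had 59.5% between the 4 replicate numbers and 13.5% between the 4 media, beside 56.1% and 14.4% over all 17038 genes tested. The share between numbers exceeded that between media in 28 of the 33 channel genes, and it was 86.9% for *Scn8a* and 84.9% for *Scn2b*. The largest shares between media were those of *Hcn4* (38.4%), *Scn7a* (37.8%), *Cacna1h* (36.8%) and *Cacna1s* (35.8%). Number 4 had the lowest mean of the numbers for 21 of the 33 genes and number 2 the highest for 22, which are also the numbers with the lowest neuron sums and with the lowest astrocyte sums; the part of cell composition in this spread was not tested. Libraries of the same number deviated together, less clearly for number 1 than for numbers 2 to 4. Each comparison is therefore given in the edgeR quasi-likelihood fit with 1 term per medium. It is also given in the same fit with the replicate number as a block, called the blocked fit.

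**Figure D3:**
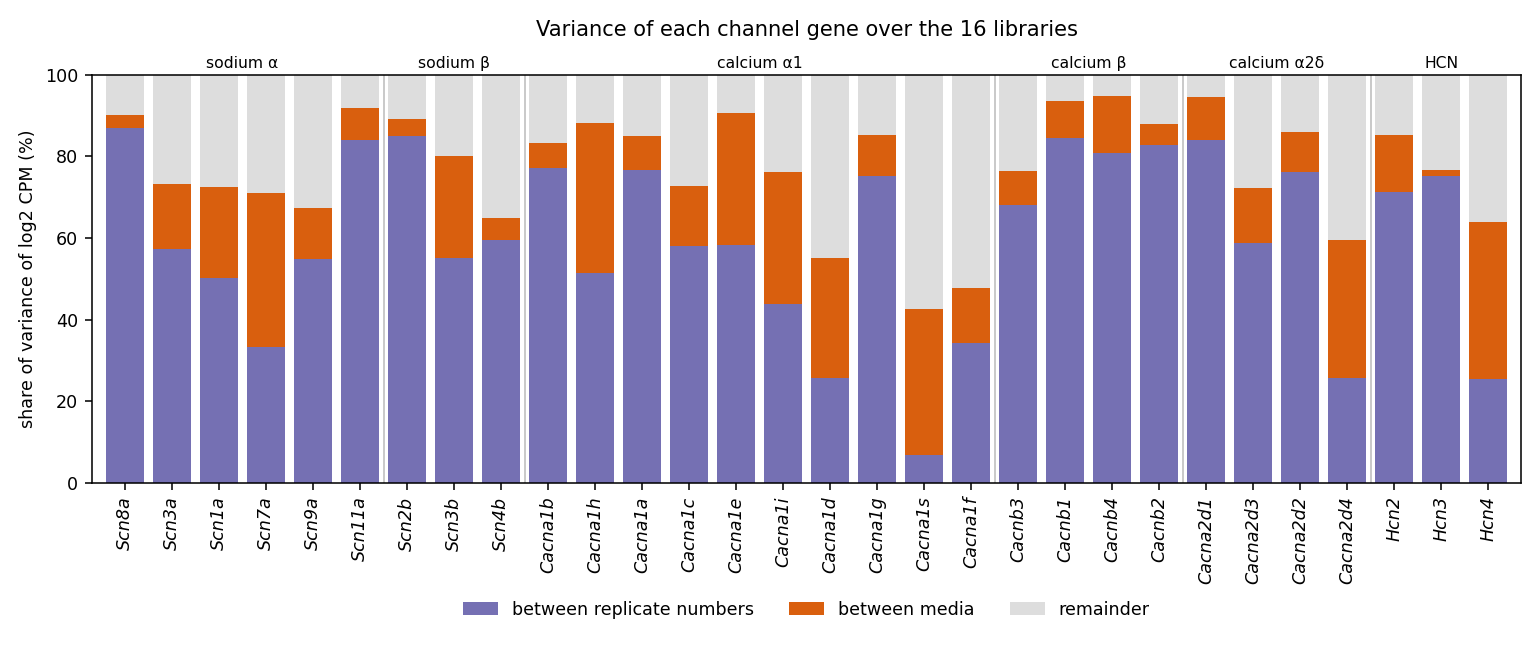
Share of the variance of log2 CPM over the 16 libraries that lies between the 4 replicate numbers, between the 4 media and in the remainder, in percent, for 30 of the channel genes tested. The part between numbers is 86.9% for *Scn8a*, and the part between media is largest for *Hcn4* at 38.4%.

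Without the block, no channel gene passed an adjusted p of 0.05 in any of the 6 comparisons, by edgeR or by DESeq2. The count at an unadjusted p under 0.05 in edgeR was 0 of 33 for apoE2, 2 for apoE3 and 0 for apoE4 against the control, 2 for apoE4 against apoE3, 0 for apoE4 against apoE2 and 3 for apoE3 against apoE2. Of all 17038 genes, 2.79%, 6.43% and 3.3% had an unadjusted p under 0.05 for apoE2, apoE3 and apoE4 against the control, 4.7% for apoE4 against apoE3, 5.34% for apoE4 against apoE2 and 2.28% for apoE3 against apoE2. Of all genes tested, 0% passed the adjusted threshold for apoE2 against the control and for apoE3 against apoE2, 0.00587% for apoE3 and 0.194% for apoE4 against the control, 0.147% for apoE4 against apoE3 and 0.252% for apoE4 against apoE2. The 3 comparisons with the control share its 4 libraries.

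By the criterion the study used, a change of 2-fold or more that also had an unadjusted p under 0.05, the fit without the block called *Scn7a* in 2 comparisons and *Cacna1s* in 1. *Scn7a* was called for apoE3 against the control, where 1.96% of all genes were called, and for apoE4 against apoE3, where 1.25% were. *Cacna1s* was called for apoE3 against apoE2, where 0.687% were. No channel gene was called for apoE2 against the control, apoE4 against the control or apoE4 against apoE2, beside 0.722%, 1.15% and 1.3% of all genes.

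In the blocked fit, channel genes differed mainly between apoE3 and the control. At an adjusted p under 0.05, 7 of 33 channel genes were called there: *Cacna1e*, *Cacna1h*, *Cacna2d1*, *Cacnb1* and *Scn3b* were lower with apoE3, and *Hcn4* and *Scn7a* were higher, 1.68-fold and 3.22-fold. Among the lower genes *Cacnb1* fell by 22.7% and *Cacna1e* fell by 43.9%. Of all genes tested, 11.7% were called in that comparison, 7.95% higher and 3.73% lower. The median log2 fold change of the 33 channel genes was -0.16, with 12 above 0 and 21 below, beside a median of 0.02 over all genes tested. No channel gene was called for apoE2 or for apoE4 against the control, beside 1.73% and 3.3% of all genes; the unadjusted p was under 0.05 for 7 and for 1 of the 33, beside 13.3% and 16.6% of all genes.

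**Figure D4:**
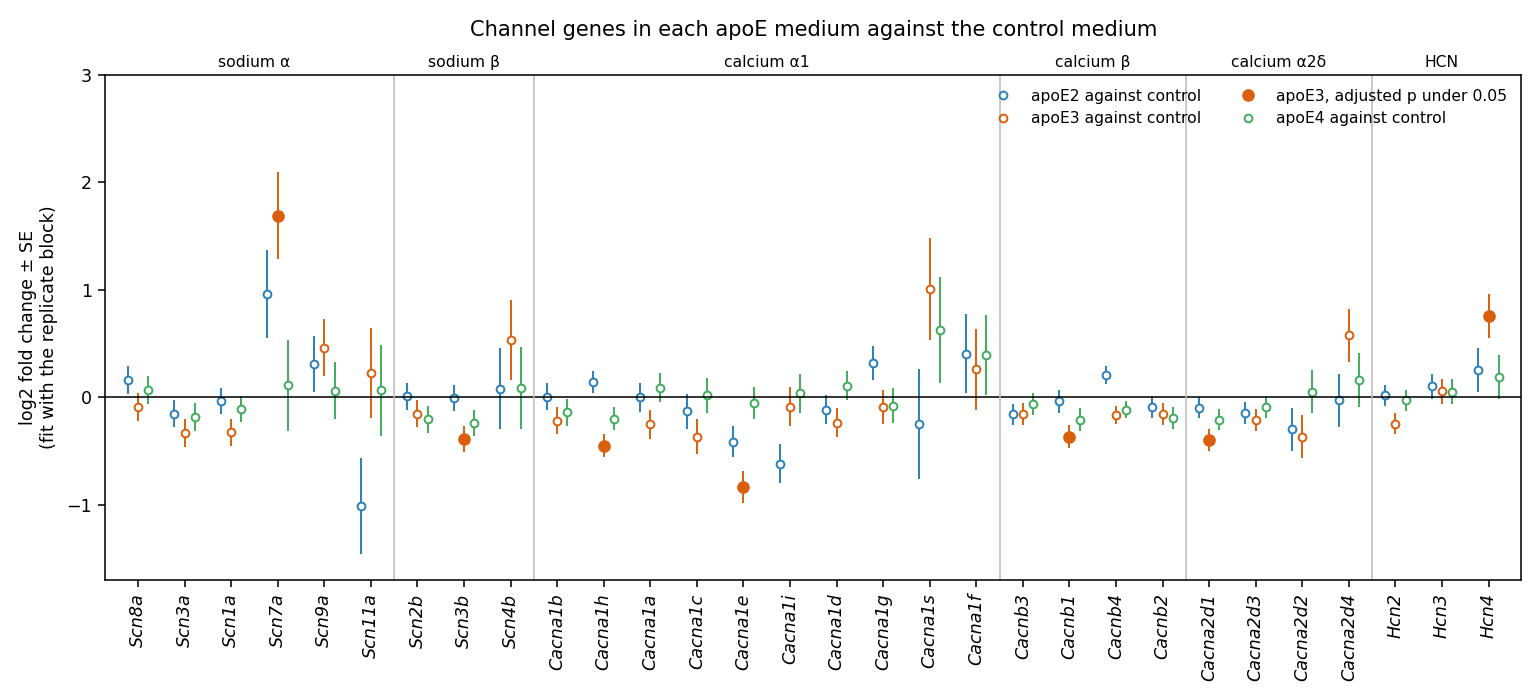
Log2 fold change ± SE of 30 of the tested channel genes in the blocked fit for apoE2, apoE3 and apoE4 against the control, with filled points at an adjusted p under 0.05. The 7 filled points belong to apoE3, of which *Cacna1e* is lowest at -0.83 and *Scn7a* highest at 1.69.

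The lower genes were led by *Cacna1e*, the R-type alpha1 subunit, at chromosome 1, 154390731 to 154884501, minus strand (mm10, GENCODE M21). It measured 206, 215, 188 and 108 CPM in the control libraries and 79.3, 172, 122 and 50.9 with apoE3, and each apoE3 library was below the control library of its number although the group ranges overlapped. It measured 116, 154, 174 and 90.8 CPM with apoE2 and 183, 222, 208 and 92.5 with apoE4. The mean was 106 ± 52.8 CPM with apoE3 and 179 ± 48.6 in the control group (SD, n = 4 each). The log2 fold change of apoE3 against the control was -0.83 ± 0.15 (SE) in the blocked edgeR fit (adjusted p = 0.00302) and -0.76 ± 0.36 without the block (adjusted p = 0.77).

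The difference of *Cacna1e* also stood between isoforms. ApoE4 was above apoE3 in 4 of 4 numbers, with a blocked log2 fold change of 0.78 ± 0.15 (edgeR adjusted p = 0.0127), the only channel gene called in that comparison, where 1.76% of all genes were called. Against the control, *Cacna1e* had a blocked log2 fold change of -0.41 ± 0.15 with apoE2 (adjusted p = 0.193, lower in 4 of 4 numbers) and of -0.06 ± 0.15 with apoE4 (adjusted p = 0.891, lower in 2 of 4). Without the block, apoE4 against apoE3 was 0.73 ± 0.36 (adjusted p = 1.00). The blocked call was kept in 12 of the 16 fits without 1 library and was lost without apoE3 replicate 1 or 3 or apoE4 replicate 1 or 3. Markers moved in this comparison too: 6 of 8 neuron markers were above 0 in the blocked fit (median 0.14), with *Gad1* called higher (0.63, adjusted p = 0.0198), and all 8 markers of the oligodendrocyte lineage were below 0 (median -0.31), with *Olig2* called lower (-0.61, adjusted p = 0.0397). *Prx* was called higher (1.03, adjusted p = 0.0367) and *Top2a* lower (-1.91, adjusted p = 0.00753), and the sum of dividing-cell markers was 10.7 to 23.6 CPM with apoE4 and 24.5 to 39.6 with apoE3, with no overlap. Their part in the difference of *Cacna1e* was not tested.

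*Cacna1h*, the T-type subunit with the highest level here, lies at chromosome 17, 25374285 to 25433783, minus strand. It measured 164, 151, 138 and 103 CPM in the control libraries, 136, 174, 177 and 123 with apoE2, 104, 122, 121 and 64.3 with apoE3 and 139, 145, 116 and 87.0 with apoE4. All 4 apoE3 libraries were below every apoE2 library, and each was below the control library of its number. With the block the log2 fold change was -0.45 ± 0.11 for apoE3 against the control (edgeR adjusted p = 0.0140) and -0.59 ± 0.11 for apoE3 against apoE2 (adjusted p = 0.0171), and without the block it was -0.43 ± 0.22 (adjusted p = 0.784) and -0.56 ± 0.22 (adjusted p = 1.00).

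*Cacna2d1* (chromosome 5, 15934691 to 16374511, plus strand) encodes the alpha2delta subunit with the highest level in these cultures. It measured 205, 309.6, 295 and 166 CPM in the control libraries, 173, 278, 295 and 165 with apoE2, 142, 288, 235 and 104 with apoE3 and 188, 275, 252 and 133 with apoE4. Every apoE3 library was below the control library of its number, and the ranges overlapped widely. ApoE3 against the control gave a blocked log2 fold change of -0.40 ± 0.10 (edgeR adjusted p = 0.0170), and -0.34 ± 0.33 without the block (adjusted p = 0.816).

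*Cacnb1* (chromosome 11, 98001508 to 98023034, minus strand), a beta subunit found in muscle and in brain, measured 73.8, 106, 111 and 54.6 CPM in the control libraries, 60.9, 104, 102 and 63.2 with apoE2, 55.1, 92.2, 84.8 and 38.8 with apoE3 and 67.0, 106, 94.7 and 38.1 with apoE4. Numbers 2 and 3 were the high libraries in every group, and apoE3 was below the control in 4 of 4 numbers. This gave a blocked log2 fold change of -0.37 ± 0.11 (edgeR adjusted p = 0.0359), and -0.35 ± 0.34 without the block (adjusted p = 0.822).

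*Scn3b* (chromosome 9, 40269217 to 40291618, plus strand), a noncovalently bound beta subunit of the sodium channel, measured 105, 156, 133 and 98.1 CPM in the control libraries, 101, 133, 118 and 126 with apoE2, 95.5, 119, 95.9 and 65.9 with apoE3 and 93.5, 144, 109 and 73.2 with apoE4. ApoE3 and apoE4 were each below the control in 4 of 4 numbers. In the blocked fit the log2 fold change was -0.39 ± 0.12 for apoE3 (edgeR adjusted p = 0.0493) and -0.24 ± 0.12 for apoE4 (adjusted p = 0.334), and without the block that of apoE3 was -0.39 ± 0.21 (adjusted p = 0.803).

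The higher genes were both expressed at low levels. *Hcn4* (chromosome 9, 58823412 to 58863175, plus strand) measured 5.82, 7.89, 7.33 and 11.9 CPM in the control libraries, 5.99, 13.0, 9.61 and 10.6 with apoE2, 12.6, 14.5, 17.4 and 9.51 with apoE3 and 7.59, 10.9, 8.30 and 10.3 with apoE4. It was higher with apoE3 in numbers 1 to 3 and lower in number 4. The blocked log2 fold change of apoE3 against the control was 0.75 ± 0.21 (edgeR adjusted p = 0.0295), and 0.72 ± 0.26 without the block (adjusted p = 0.745).

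*Scn7a* (chromosome 2, 66673425 to 66784914, minus strand) encodes the channel of the family that does not open with voltage in the usual way and that senses extracellular sodium. It measured 2.86, 1.25, 2.20 and 2.62 CPM in the control libraries, 4.51, 1.49, 2.91 and 9.54 with apoE2, 13.4, 4.88, 6.89 and 2.82 with apoE3 and 4.0, 1.08, 1.77 and 3.41 with apoE4. The apoE3 libraries were above the control libraries of their numbers in 4 of 4, by little in number 4, and the group ranges overlapped. The blocked log2 fold change of apoE3 against the control was 1.69 ± 0.40 (edgeR adjusted p = 0.0152), and 1.65 ± 0.59 without the block (unadjusted p = 0.0143, adjusted p = 0.745). For apoE4 against apoE3 it was -1.58 ± 0.41 with the block (adjusted p = 0.0648) and -1.45 ± 0.59 without it (unadjusted p = 0.0266, adjusted p = 0.979). For apoE2 against the control the blocked value was 0.96 ± 0.41 (adjusted p = 0.307).

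**Figure D5:**
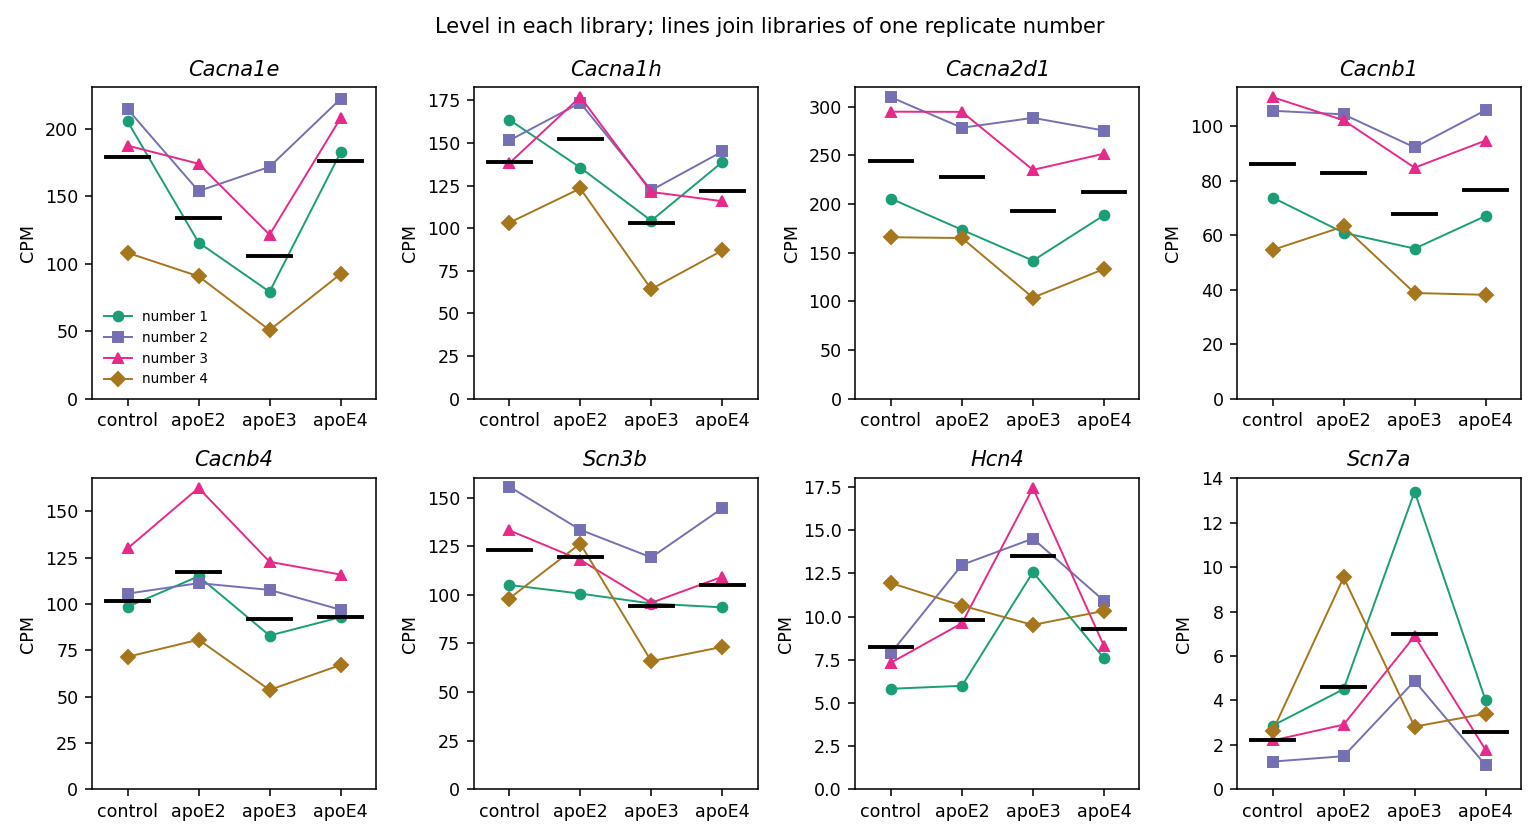
Level in CPM of the 8 channel genes called in any comparison of the blocked fit, in each of the 16 libraries, with lines joining libraries of one replicate number and black bars for the mean of each medium. *Cacna1e* is lower with apoE3 than with the control in each of the 4 numbers, and number 4 is the lowest line for *Cacna1e*, *Cacna1h*, *Cacna2d1* and *Cacnb4*.

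Most of these calls depended on single libraries. Without apoE3 replicate 4, the library with the lowest neuron sum, the blocked calls for apoE3 against the control included *Hcn4* and *Scn7a*, both higher, and *Cacna1e*, the single lower gene, where 5.36% of all genes were called. Without apoE3 replicate 1, or without control replicate 1, *Cacna1e* was the single channel gene called, beside 5.17% and 4.29% of all genes, so that the calls over all genes fell from 11.7% as well. ApoE3 replicate 1 had 71.6% of reads on no gene and control replicate 1 had 61.8%, and the part of this in the calls was not tested. Without all 4 libraries of number 4, the calls included *Hcn4* and *Scn7a*, both higher, and the lower genes were *Cacna1e*, *Cacnb1* and *Scn3b*, beside 8.54% of all genes. Without apoE2 replicate 4 the same 7 genes were called as with all libraries, and without apoE4 replicate 2 the call of *Scn3b* was lost. *Cacna1e* passed in 16 of 16 blocked fits that each left out 1 library, with log2 fold changes of -1.03 to -0.72 and adjusted p of 0.000385 to 0.0183, whereas *Scn7a* passed in 14, *Cacna1h* in 13, *Cacna2d1* in 12, *Hcn4* in 11, *Cacnb1* in 9 and *Scn3b* in 4.

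The values without apoE3 replicate 4 moved toward 0 for the lower genes and away from 0 for the higher ones. The blocked log2 fold change of apoE3 against the control became -0.76 for *Cacna1e* (edgeR adjusted p = 0.0149), -0.38 for *Cacna1h* (0.0634), -0.32 for *Cacna2d1* (0.0725), -0.34 for *Cacnb1* (0.121) and -0.31 for *Scn3b* (0.179). It became 0.98 for *Hcn4* (0.00482) and 2.12 for *Scn7a* (0.000460).

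The markers of cell types moved in this comparison as well. In the blocked edgeR fit of apoE3 against the control, 7 of 8 neuron markers had a log2 fold change below 0 (median -0.26), with *Gad1* and *Snap25* called lower and *Tubb3* called higher, and 5 of 6 astrocyte markers (*Gfap*, *Aqp4*, *Aldh1l1*, *Slc1a3* and *Gja1*), 3 of 8 markers of the oligodendrocyte lineage, 1 of 8 fibroblast or mural markers and 0 of 6 microglia markers were called higher. The neuron sum was 2879 to 6619 CPM with apoE3 and 4034 to 6826 in the control group, and the astrocyte sum 1517 to 5442 and 1275 to 2651. The dividing-cell gene *Top2a*, a DNA topoisomerase, was called higher by 2.58 ± 0.35 on the log2 scale (adjusted p = 0.000559), and the sum of the 3 markers of dividing cells was 24.5 to 39.6 CPM with apoE3 and 5.80 to 15.4 in the control group, with no overlap. The endothelial gene *Flt1*, a VEGF receptor, was called higher too, with 1.15 ± 0.31 (adjusted p = 0.0281). With apoE4, where no channel gene was called, 3 astrocyte markers were called higher in the same fit, as were *Cspg4* of the oligodendrocyte lineage, *Col1a2* of fibroblasts, *Flt1* (1.40, adjusted p = 0.0190) and the Schwann cell gene *Prx* (1.46, adjusted p = 0.00261). The part of these marker changes in the differences of channel genes was not tested.

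Dividing by the neuron markers of the same library shifted the mean paired log2 difference of every gene by the same amount. The marker sum was lower with apoE3, so the lower genes had to differ less from the control and the higher genes more. Per 1000 CPM of the 8 summed neuron markers, a ratio added after the marker levels had been seen, *Cacna1e* was 20.6 ± 4.52 CPM with apoE3 and 32.3 ± 6.70 in the control group (SD, n = 4 each). The mean paired log2 difference was -0.85 for the gene, -0.20 for the marker sum and -0.65 for the ratio, which was lower in 4 of 4 numbers. For *Cacna1h* the difference of the ratio was -0.26 (lower in 4 of 4), for *Cacna2d1* -0.21 (4 of 4), for *Cacnb1* -0.18 (4 of 4) and for *Scn3b* -0.19 (3 of 4). For *Hcn4* it was 0.93 and for *Scn7a* 1.69, each higher in 4 of 4 numbers. Between apoE4 and apoE3 the ratio of *Cacna1e* rose from 20.6 ± 4.52 to 32.8 ± 4.5 CPM per 1000 CPM, with no overlap between the groups. No test was run on these ratios.

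The members of each family were tallied for apoE3 against the control, with no test between families. In the blocked fit, all 4 beta subunits of the calcium channel were below 0 (median log2 fold change -0.16, 1 called), as were 8 of 10 alpha1 subunits (median -0.23, 2 called) and 3 of 4 alpha2delta subunits (median -0.29, 1 called). Of the sodium channel genes, 3 of 7 alpha subunits were below 0 (median 0.22, 1 called higher) and 2 of 4 beta subunits (median -0.06, 1 called lower). Of the HCN genes 1 of 4 was below 0 (median 0.18, 1 called higher). *Scn1a* (-0.33, adjusted p = 0.0927), *Scn3a* (-0.33, adjusted p = 0.110) and *Hcn2* (-0.25, adjusted p = 0.111) missed the edgeR threshold in the blocked fit.

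Some of these family tallies were much alike with the other media, whose comparisons share the control libraries. With apoE4 all 4 calcium channel beta subunits were also below 0 (median -0.15, 0 called). With apoE2 all 4 HCN genes were above 0 (median 0.18, 0 called) and all 4 alpha2delta subunits below 0 (median -0.12, 0 called). With apoE2 the median blocked log2 fold change of the 33 channel genes was -0.01, with 15 above 0 and 18 below, and with apoE4 it was 0.03, with 18 above and 15 below. The smallest adjusted p with apoE2 was that of *Cacna1i*, a T-type subunit, which measured 8.88, 26.0, 23.8 and 16.9 CPM with apoE2 against 23.0, 36.8, 24.7 and 28.7 in the control group, a blocked log2 fold change of -0.62 ± 0.18 (edgeR adjusted p = 0.108) with lower values in 4 of 4 numbers. It measured 19.4, 42.8, 28.6 and 18.8 CPM with apoE3 and 26.8, 32.1, 28.7 and 26.9 with apoE4, and every apoE4 library was above every apoE2 library. ApoE4 against apoE2 had a blocked log2 fold change of 0.65 ± 0.18 (adjusted p = 0.0591).

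Between apoE4 and apoE2, *Cacnb4* was the only channel gene called in the blocked fit, where 4.44% of all genes were. This beta subunit, whose loss underlies the lethargic mouse, lies at chromosome 2, 52428320 to 52676831, minus strand. It measured 98.5, 106, 129.98 and 71.5 CPM in the control libraries, 115, 111, 163 and 80.7 with apoE2, 83.0, 108, 123 and 53.6 with apoE3 and 92.9, 96.9, 116 and 67.1 with apoE4. ApoE2 was above each of the other media in 4 of 4 numbers, and the group ranges overlapped. For apoE4 against apoE2 the blocked log2 fold change was -0.32 ± 0.08 (edgeR adjusted p = 0.0423), and for apoE3 against apoE2 it was -0.37 ± 0.08 (adjusted p = 0.0421), and without the block -0.33 ± 0.27 and -0.35 ± 0.27 (adjusted p = 1.00 for each). These calls were kept in 3 and in 2 of the 16 fits without 1 library. Set against the neuron marker sum, the mean paired log2 difference of *Cacnb4* was -0.20 for apoE4 and -0.15 for apoE3 against apoE2, lower in 3 of 4 numbers each, beside -0.32 and -0.38 for the gene itself. In the blocked fit of apoE4 against apoE2, the astrocyte gene *Slc1a2*, the fibroblast genes *Col1a1* and *Col1a2* and the Schwann cell gene *Prx* were called higher and no neuron marker was called. Their part in these differences was not tested.

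Between apoE3 and apoE2, *Cacna1h* and *Cacnb4* were the channel genes called in the blocked fit, both lower with apoE3, where 1.31% of all genes were called. The call of *Cacna1h* was kept in 11 of the 16 fits without 1 library and was lost without apoE2 replicate 2, 3 or 4 or apoE3 replicate 1 or 4, and without all libraries of number 4 its log2 fold change was -0.48 (edgeR adjusted p = 0.106). The ratio of *Cacna1h* to the neuron marker sum differed by -0.36, lower in 4 of 4 numbers, beside -0.59 for the gene itself. No marker was called in this comparison, where 6 of 8 neuron markers were below 0 and all 6 astrocyte markers above 0. *Cacna1s*, the skeletal muscle L-type subunit, measured 0.211, 0.497, 0.536 and 0.153 CPM with apoE2 and 0.762, 0.902, 1.14 and 0.459 with apoE3, and 0.227, 0.443, 0.489 and 0.471 in the control libraries and 0.813, 0.684, 0.166 and 0.814 with apoE4. Its log2 fold change of apoE3 against apoE2 was 1.22 ± 0.50 without the block (unadjusted p = 0.0274, adjusted p = 1.00) and 1.25 ± 0.48 with it (adjusted p = 0.217), and its call was lost without apoE2 replicate 1 or 4 or apoE3 replicate 2 or 3. Its counts could include reads of the antisense gene *Gm37759*.

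Partner and related genes were tallied from a list of 39, of which 38 were in the tables and 35 were tested. The list holds proteins that bind or regulate these channels, AMPA receptor regulators related to calcium channel gamma subunits, and the separate sodium leak channel *Nalcn* with its own auxiliary proteins, among them *Fam155a*. No partner gene passed an adjusted p of 0.05 without the block in edgeR. In the blocked fit 5 of 35 were called for apoE3 against the control, beside 11.7% of all genes. *Nfasc*, the neurofascin of the axon initial segment (0.48 ± 0.11, adjusted p = 0.0113), and *Cacng5*, a regulator of AMPA receptors (0.86 ± 0.15, adjusted p = 0.00312), were higher. *Rem2*, a small GTPase that inhibits calcium channels (-0.87 ± 0.15, adjusted p = 0.00229), *Rimbp2*, which ties calcium channels to release sites (-0.59 ± 0.17, adjusted p = 0.0383), and *Cacng3*, another AMPA receptor regulator (-0.69 ± 0.21, adjusted p = 0.0443), were lower. The blocked calls were 2 of 35 for apoE2 against the control, beside 1.73% of all genes, with *Fgf11*, an intracellular sodium channel partner, higher and *Rem2* lower, and 1 of 35 for apoE4 against the control, beside 3.3%, *Nfasc*, which was higher. *Rem2* was also higher with apoE4 than with apoE3, the single partner called there beside 1.76% of all genes, and 4 partners were called between apoE4 and apoE2, beside 4.44%: *Rem2* and *Cacng4* higher with apoE4, *Fgf11* and *Fam155a* lower. None was called between apoE3 and apoE2, beside 1.31%.

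The promoters of 4 of the genes called with apoE3 are given, chosen to include both directions, *Cacna1e* and *Cacna2d1* down and *Hcn4* and *Scn7a* up. A link between sequence and direction was not tested. RefSeq gives windows from 250 bases before to 50 bases after its own gene start, on GRCm38.p6, for 25 of the 35 channel genes, 34 windows in all. Both strands were searched for the GC box, GGGCGG, which reads CCGCCC on the opposite strand. The TATA box was searched as TATAAA. The CCAAT box was searched by the letters of its name, and the E-box as CACGTG. Capitals mark every base of a match, and overlapping matches run together. Each window is printed 5′ to 3′ on the strand of its gene. The RefSeq start of *Cacna1e* lies inside the GENCODE gene and that of *Hcn4* upstream of it, so these windows do not sit at the starts of the loci given above.
*Cacna1e*, chr1:154725871-154726170, minus strand: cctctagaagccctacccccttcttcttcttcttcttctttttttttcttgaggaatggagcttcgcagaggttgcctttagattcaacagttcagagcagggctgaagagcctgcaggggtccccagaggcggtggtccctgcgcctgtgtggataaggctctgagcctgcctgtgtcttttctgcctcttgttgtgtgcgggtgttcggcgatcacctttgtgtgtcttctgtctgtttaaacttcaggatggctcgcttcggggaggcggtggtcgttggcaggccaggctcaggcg
*Cacna2d1*, chr5:15934441-15934740, plus strand: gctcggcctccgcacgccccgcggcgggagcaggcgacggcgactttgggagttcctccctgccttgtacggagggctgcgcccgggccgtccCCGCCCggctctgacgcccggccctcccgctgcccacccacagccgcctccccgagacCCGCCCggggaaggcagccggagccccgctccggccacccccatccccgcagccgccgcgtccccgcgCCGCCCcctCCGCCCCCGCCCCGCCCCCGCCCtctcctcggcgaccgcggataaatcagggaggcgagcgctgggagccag
*Hcn4*, chr9:58822699-58822998, plus strand: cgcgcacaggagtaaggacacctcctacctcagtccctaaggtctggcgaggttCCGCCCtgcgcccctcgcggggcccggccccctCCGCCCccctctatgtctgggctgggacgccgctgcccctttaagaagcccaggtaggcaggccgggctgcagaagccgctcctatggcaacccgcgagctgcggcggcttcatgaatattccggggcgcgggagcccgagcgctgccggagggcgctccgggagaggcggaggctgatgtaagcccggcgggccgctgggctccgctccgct
*Scn7a*, chr2:66784861-66785160, minus strand: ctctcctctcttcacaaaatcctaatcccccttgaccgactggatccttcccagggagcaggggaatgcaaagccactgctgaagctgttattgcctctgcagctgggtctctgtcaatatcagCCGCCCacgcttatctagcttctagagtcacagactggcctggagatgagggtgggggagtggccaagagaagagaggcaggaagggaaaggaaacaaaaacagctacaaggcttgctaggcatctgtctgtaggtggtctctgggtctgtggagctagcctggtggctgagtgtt

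The window of *Cacna2d1* held GGGCGG or its complement 7 times and was 80.0% G and C with 42 CpG dinucleotides, the window of *Hcn4* held it 2 times (71.7%, 31 CpG) and that of *Scn7a* 1 time (54.0%, 3 CpG). The window of *Cacna1e* held none of the 4 motifs and was 55.3% G and C with 11 CpG. For *Cacnb1*, also called lower, a window not printed above held GGGCGG or its complement 5 times (73.7%, 34 CpG). Another window of *Cacnb1* held none of the 4 motifs (59.3%, 3 CpG). GGGCGG was in 16 of the 34 channel windows (47.1%) and in 35.7% of all 32851 windows, TATAAA in 1 (2.94%) and 13.6%, CCAAT in 8 (23.5%) and 37.4%, and CACGTG in 0 and 7.15%. The median G and C content was 62.8% for the channel windows and 52.7% for all windows. These are descriptions of the sequence, and several genes have other starts that the windows do not show.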

How the data were processed

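RNA of 16 cultures of hippocampal neurons had been depleted of ribosomal RNA and sequenced. The values are raw counts per gene, which the authors made with STAR (mm10) and HTSeq and deposited; the annotation and the strand setting are not given in the sources used here. Reads that HTSeq assigned to no gene, 38.4 to 73.7% of a library, did not enter any total or test. Levels per kb used exon lengths of GENCODE M21.

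Groups and replicate numbers came from the labels. All 17038 genes that passed filterByExpr (minimum count 10, minimum total 15, proportion 0.7) entered a quasi-likelihood fit (edgeR 4.0.16, R 4.3.3; TMM factors) with 1 term per medium, and p-values were adjusted by Benjamini-Hochberg over all of them in each of 6 comparisons. The scripts were tested on simulated data. Libraries of the same replicate number deviated from their group means together, with correlations across genes of 0.362 to 0.831, beside -0.736 to 0.569 for different numbers, so the numbers pair the samples and a fit with the number as a block is given beside the other; the labels do not say what the numbers share. The study names 4 independent cultures per group.

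Alternatives were the block, DESeq2 1.42.0 and its size factors, no filter, a filter of 1 CPM in 8 libraries, only the 2 groups compared, and each library left out; leaving out libraries within the blocked fit, and leaving out number 4, were added after seeing the data. The channel genes, partner list, marker lists and tests were chosen with earlier results of these data known. Named are all members called in either fit, the member with the smallest p in each comparison and the highest member of each family; *Scn2a1* and the near misses were named after their values were seen. Values of some members are not reported here, although counts over the members include them. The promoter windows are RefSeq's.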

Additional observations from a re-analysis of the deposited data

Results flagged for a closer look

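Differences between isoform media were called for 3 channel genes in the edgeR fit with the replicate number as a block, and they are listed because the difference between media was itself tested. *Cacna1e* was higher with apoE4 than with apoE3, with a log2 fold change of 0.78 (adjusted p = 0.0127) and higher values in 4 of 4 numbers. *Cacna1h* was lower with apoE3 than with apoE2, with -0.59 (adjusted p = 0.0171), lower in 4 of 4. *Cacnb4* was lower than with apoE2 in 4 of 4 numbers for both apoE4, with -0.32 (adjusted p = 0.0423), and apoE3, with -0.37 (adjusted p = 0.0421). With 1 library left out at a time, the call of *Cacna1e* was lost in 4 of 16 blocked fits, that of *Cacna1h* in 5, and those of *Cacnb4* in 13 and in 14, and without the block each of the 4 had an adjusted p of 1.00. Set against the neuron marker sum of the same library, the mean paired log2 difference was 0.69 for *Cacna1e* (higher in 4 of 4 numbers), -0.36 for *Cacna1h* (lower in 4 of 4), and -0.20 and -0.15 for *Cacnb4* with apoE4 and apoE3 (lower in 3 of 4 each). In the comparison in which *Cacna1e* was called, *Gad1* and *Prx* were called higher and *Olig2* and *Top2a* lower, and their part in it was not tested. No library of a group stood far enough from the other 3 to pass Dixon's 95% limit in 60 groups over 15 genes, where chance alone would mark about 1 group in 20. The groups reuse the same 16 libraries, and with 4 values each the limit marks only extreme libraries. It does not show that the calls are free of single libraries.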

How the results depend on the processing

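With the replicate block, the channel genes at an adjusted p under 0.05 went from 0 to 7 for apoE3 against the control, to 1 for apoE4 against apoE3, to 1 for apoE4 against apoE2 and to 2 for apoE3 against apoE2, and stayed at 0 for apoE2 and apoE4 against the control. Without the block they were 0 under every alternative, DESeq2 included. By the 2-fold criterion the block gave 1 (*Scn11a*) in place of 0 for apoE2 against the control and for apoE4 against apoE2, beside 1.56% and 2.1% of all genes, and 2 (*Cacna1s* and *Scn11a*) in place of 1 for apoE3 against apoE2, beside 1.68%. There no low-count filter gave 2 (*Cacna1s* and *Scn10a*), beside 1.68%, and a filter of 1 CPM in 8 libraries 0, beside 0.343%. DESeq2 and the fit of only the 2 groups each gave 2 (*Cacna1s* and *Scn7a*) in place of 1 for apoE3 against the control, beside 2.18% and 1.3% of all genes. Fold changes called at an adjusted p under 0.05 with the block, or by the 2-fold criterion without it, kept their sign in every setting. So did those with the smallest unblocked p of each comparison. Other fold changes named above were not followed in this way.

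With each library left out in turn, the blocked counts ranged from 1 to 8 for apoE3 against the control, 0 to 1 for apoE4 against the control, 0 to 3 for apoE4 against apoE3, 0 to 2 for apoE4 against apoE2 and 0 to 4 for apoE3 against apoE2, while the share of all genes called ranged over the same fits from 4.29 to 15.9%, 1.29 to 5.82%, 0.577 to 2.59%, 2.07 to 5.5% and 0.322 to 1.58%. The counts by the 2-fold criterion ranged from 0 to 1, 0 to 2 and 0 to 0 for apoE2, apoE3 and apoE4 against the control, and 0 to 2, 0 to 1 and 0 to 1 for the isoform comparisons in the same order, with 0.646 to 1.35%, 1.2 to 5.32%, 0.937 to 2.15%, 1.12 to 2.32%, 1.22 to 2.22% and 0.52 to 1.84% of all genes. *Scn7a* lost the 2-fold call for apoE3 against the control without apoE3 replicate 1, and for apoE4 against apoE3 without that library or apoE4 replicate 2 or 3. Without the libraries of number 4 the blocked count was 6 for apoE3 against the control, 3 (*Cacna1e*, *Hcn4* and *Scn7a*) for apoE4 against apoE3, 0 for apoE4 against apoE2 and 1 (*Scn7a*) for apoE3 against apoE2, beside 8.54%, 2.17%, 2.78% and 0.678% of all genes. With the longest transcript as length, 5 of 6 families kept their highest gene. The causes were not tested. *Scn4a*, *Scn10a*, *Scn11a*, *Cacna1f* and *Cacna1s* had few counts, which limits what could be detected for them.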
